A study of Mus musculus with 30 samples.

Results

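Mitochondrial ribosomal proteins build the ribosome that works inside mitochondria. They were taken here as every gene of the count table whose symbol begins with Mrpl or Mrps followed by a number, with the 5 pseudogenes of that pattern left out. This gave 78 genes of 46078 in the table (0.169%), 49 named for the large subunit (Mrpl) and 29 for the small subunit (Mrps). All 78 are accounted for: 65 were measured, meaning a mean of at least 10 CPM (fragments scaled to a common library size) over the 3 libraries, and 13 lay under that level.

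The mitochondrial ribosome translates the few proteins that mitochondrial DNA encodes, all of them subunits of the respiratory chain and the ATP synthase. Its ribosomal RNAs are transcribed in the mitochondrion, whereas its proteins are encoded in the nucleus, made in the cytosol and imported, so its assembly needs both genomes. Some of its proteins descend from those of bacterial ribosomes and others have no bacterial counterpart. Muscle relies heavily on respiration, and myoblasts expand their mitochondria when they differentiate.

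The RNA came from C2C12 cells, an established mouse myoblast line, kept growing in medium with 20% fetal bovine serum. The cells were trypsinised, stained for 15 min with a Hoechst dye, which binds DNA, and split in a cell sorter into fractions of G1, of S and of G2/M cells. The labels name no allele, drug or genetic change, all 3 fractions share the line and its growth state, and the line is 1 immortalised model. The series holds 30 samples, and its 24 ChIP-seq libraries were left out of this account.

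Each phase has 2 columns of counts, which the sample titles number as replicates. No source used here says whether they came from separate cultures, and their fragments per gene differed by about counting noise (chi-square over degrees of freedom 1.00 (G1), 1.03 (S) and 1.15 (G2/M) over all genes, and 1.09, 0.955 and 1.05 over the mitochondrial ribosomal protein genes). In S and G2/M the chi-square test over all genes gave a small excess over counting noise. By the limit of 1.5 set for that quotient the columns were summed to 1 library per phase, holding 32395232 (G1), 35822319 (S) and 35907974 (G2/M) fragments. With the columns not counted as independent replicates, no test between phases was made, and the intervals below cover counting error only. The titles of the S samples carry a lot mark that the other titles lack, which means that a difference between lots and a difference between phases cannot be told apart. In bulk fractions, fewer cells of a kind and less RNA per cell cannot be told apart either. Cdc6, a licensing factor loaded before S phase, was at 140 CPM in G1, 11.2 in S and 24.2 CPM in G2/M, and the G2/M cyclin Ccnb1 at 74.3, 242 and 390 CPM. Of 6 myoblast markers 5 were measured, with a summed level of 746 to 821 CPM. The exception was Myod1 itself, at 213, 218 and 208 fragments. None of 12 markers of other cell types was measured, and 7 of them had no fragment in any library.

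Summed over all 78 genes, transcripts of mitochondrial ribosomal proteins were at 2699 CPM in G1 (95% counting interval 2681 to 2717), 2351 CPM in S (2335 to 2367) and 2466 CPM in G2/M (2450 to 2482). The large subunit genes contributed 1828, 1521 and 1605 CPM and the small subunit genes 871, 829 and 861 CPM. Both sums were highest in G1 and lowest in S, and the gap between G1 and S was wider for the large subunit. The G1 and G2/M sums of the small subunit had overlapping counting intervals (861 to 881 and 851 to 870 CPM). With 1 library per phase no difference can be set against the spread between cultures.

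Levels between genes were compared as CPM per kilobase of exon. The exon length is the one annotated in the deposited counts, so a gene's place on this scale depends on that annotation. The measured large subunit genes had a median of 17.6 (G1), 13.9 (S) and 14.6 (G2/M) on that scale, and the measured small subunit genes 12.9, 10.7 and 12.3. Within each subunit the genes ranged widely, although the ribosome holds their proteins in fixed proportion. Mrpl42, a large subunit protein without a bacterial counterpart, had the highest mean of its subunit over the 3 libraries, at 98.3, 49.8 and 55.6 CPM per kilobase in G1, S and G2/M. Mrpl18, Mrpl9 and Mrpl16, all of bacterial descent, had the next highest means at 65.2, 55.8 and 49.9, at 53.9, 44.1 and 39.1, and at 68.3, 34.1 and 32.1. In S, Mrpl18 was above Mrpl42. In the small subunit, Mrps6 had the highest mean, with 85.0, 50.3 and 89.1 CPM per kilobase, followed by Mrps16 with 86.1, 52.2 and 38.0. Of these 2 genes, both with bacterial counterparts, Mrps16 was slightly higher in G1 and S and Mrps6 far higher in G2/M. Of the exon bases of Mrps6, 15.1% are shared with Slc5a3, a sodium and inositol transporter gene. At the low end of the measured genes stood Mrpl35 (4.28, 4.54 and 5.84 CPM per kilobase), Mrpl47 (4.60, 3.504 and 8.77) and Mrpl23 (4.85, 6.33 and 6.04) of the large subunit. Mrps14 (2.21, 2.53 and 4.83) and Mrps10 (4.35, 3.57 and 4.51) were lowest of the small subunit. Mrps10 has 8079 annotated exon bases, and its 35.1 CPM in G1 lay near the median of the measured members (34.8). Its low place thus rests on that length. High and low levels thus occurred in both subunits, and a gene could change its place in the order between phases.

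**Figure D1:**
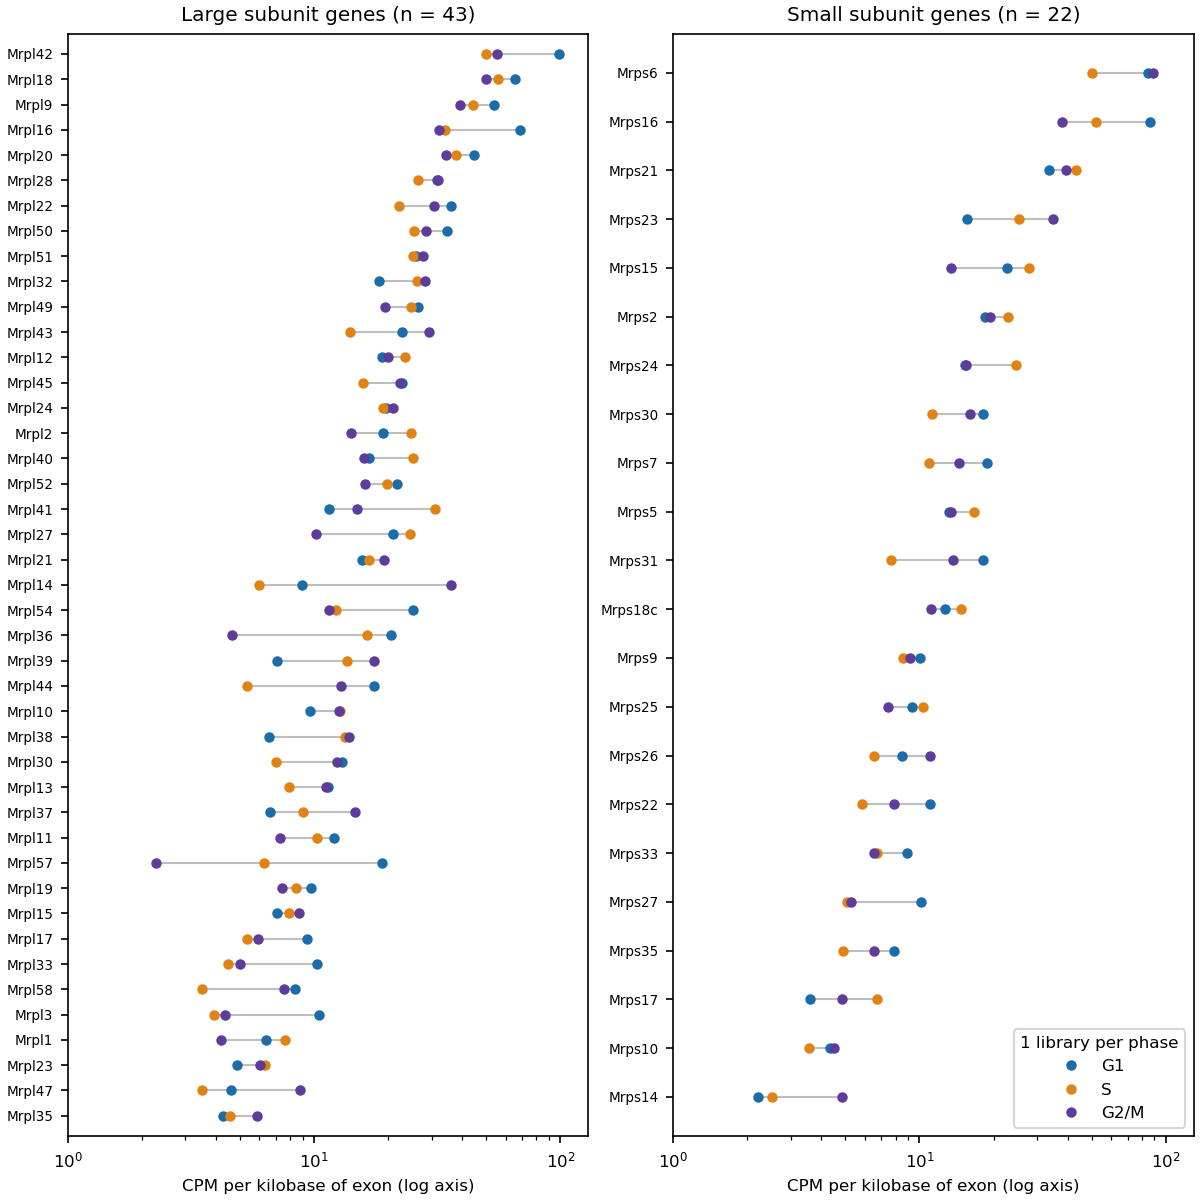
Level of each measured mitochondrial ribosomal protein gene in CPM per kilobase of exon (log axis), with 1 point per phase (1 library each) and the large (n = 43) and small (n = 22) subunit genes in separate panels, ordered by mean level. Mrpl42 and Mrps6 have the highest means of their panels, and Mrpl57, Mrpl14 and Mrpl36 show the widest spans between phases.

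G1 was the phase of the highest level for 31 of the 65 measured genes (47.7%, against 36.4% of the 8335 genes measured in all). S held the highest level of 16 genes (background 30.4%) and G2/M that of 18 (background 33.2%). The lowest level fell in S for 27 genes (background 30.6%), in G2/M for 20 (background 33.2%) and in G1 for 18 (background 36.2%). For the large subunit G1 was highest in 22 of 43 genes and S in 8. The small subunit was more evenly spread, with G1 highest in 9 of 22 genes and S in 8. From its lowest to its highest library a gene differed by 1.66-fold at the median, against 1.57-fold over all measured genes. The quartiles of that range were 1.33 and 2.18-fold for the members and 1.31 and 2.06-fold for all measured genes. Mrpl51, at 87.5, 85.0 and 93.2 CPM, was among the steadiest, and it was picked as an example after its values were seen.

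The first comparison asked how the genes stood in S against G1. Most were lower in S: 40 of 65 were lower (background 50.1%) and 25 higher (background 49.9%), with a median log2 ratio of -0.23 and quartiles of -0.70 and 0.30, against a median of -0.00 over all measured genes. At 1.5-fold or more, 20 genes were lower (background 16.4%) and 7 higher (background 17.5%). At 2-fold or more, 9 were lower (background 6.78%) and 2 higher (background 7.49%). The counting interval lay wholly below 0 for 37 genes (background 44%) and wholly above 0 for 22 (background 43.7%). As a description of these libraries, 30.8% of the members were 1.5-fold lower and 10.8% 1.5-fold higher. Both shares depend on the setting. Once the median of genes of like exon length was subtracted, 11 genes were 1.5-fold higher and 16 lower, and the median was -0.078. With a minimum of 10 CPM in 1 of the 2 libraries only, 11 were higher and 20 lower. Of the 14 members averaging 50 CPM or more, 0 were 1.5-fold higher and 2 lower. Of all 4239 genes of that level, 20.9% differed by 1.5-fold in either direction. For the other settings the share of all genes is not given here, so their counts have no background.

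The 9 genes at least 2-fold lower in S came from both subunits. Mrpl44, which has the fold of a double-stranded RNA ribonuclease, lies on chromosome 1 (chr1:79776018-79781445, plus strand, GRCm38). Its 2 columns gave 29.5 and 28.4 CPM in G1, 7.98 and 9.64 in S, and 20.4 and 21.8 CPM in G2/M. The S columns lay well under all others, and the log2 ratio of S to G1 was -1.71 (95% counting interval -1.90 to -1.53). Mrpl57, a small protein found only in mitochondrial ribosomes (chr14:57826239-57828745, plus strand), was at 45.3 and 42.1 CPM in G1, 13.9 and 15.1 in S, and 4.95 and 5.63 CPM in G2/M. Each later phase was lower than the one before, with a log2 ratio of -1.59 (-1.74 to -1.44) in S against G1. Mrpl3, a core protein near the catalytic centre of the large subunit (chr9:105053239-105079888, plus strand), was at 62.4 and 62.4 CPM in G1, 22.9 and 23.9 in S and 26.8 and 24.9 CPM in G2/M. Its S and G2/M levels were close to each other and far below G1, with a log2 ratio of -1.41 (-1.53 to -1.30) in S against G1. Mrpl58, the peptidyl-tRNA hydrolase that is built into the large subunit and frees stalled chains, was at 28.0 CPM in G1, 11.7 in S and 25.2 CPM in G2/M. Mrps31, a small subunit protein without a bacterial counterpart, had nearly the same course at 27.9, 11.8 and 21.04 CPM. In both, the S library was the low one.

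The other 4 of these genes were Mrpl33, Mrpl54, Mrps27 and Mrpl16. Mrpl33, which has a bacterial counterpart, was at 75.1 CPM in G1, 32.8 in S and 36.8 CPM in G2/M. Mrpl16, which contacts the transfer RNA sites in ribosomes generally, was at 76.7, 38.3 and 35.98 CPM. Mrpl54, found only in mitochondria, was at 20.8, 10.1 and 9.51 CPM, and Mrps27, a pentatricopeptide repeat protein of the small subunit, at 18.7, 9.35 and 9.76 CPM. These 4 shared a G1 level about 2-fold above both other libraries.

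Mrpl41 and Mrpl38 were the 2 genes at least 2-fold higher in S. Mrpl41, a mitochondria-specific large subunit protein (chr2:24974117-24975098, minus strand), was at 9.91 and 10.5 CPM in G1, 28.9 and 26.0 in S and 13.6 and 12.9 CPM in G2/M, a peak in S with a log2 ratio of 1.43 (1.24 to 1.61) to G1. Mrpl38, part of the central protuberance of the large subunit (chr11:116131817-116138868, minus strand), was at 17.3 and 16.1 CPM in G1, 33.9 and 34.5 in S and 33.7 and 37.0 CPM in G2/M. It was low only in G1, and its log2 ratio of S to G1 was 1.04 (0.89 to 1.18). Next came Mrpl39, a relative of threonyl-tRNA synthetase, at 17.97, 34.5 and 44.2 CPM, and Mrps17, of bacterial descent, at 23.3, 43.7 and 31.4 CPM. Mrps23 was at 24.3, 39.6 and 54.5 CPM and Mrps24 at 22.4, 36.3 and 22.6 CPM. The genes higher in S thus parted in G2/M, where Mrpl38, Mrpl39 and Mrps23 were still above their G1 level while Mrps24 was back at it.

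From S to G2/M the balance turned slightly: 36 genes were higher in G2/M (background 50.1%) and 29 lower (background 49.9%). The median log2 ratio was 0.11, against 0.00 over all measured genes. At 1.5-fold, 11 were higher (background 14.4%) and 9 lower (background 14.3%), shares of 65 that lie near the background. At 2-fold, 5 were higher (background 5.48%) and 5 lower (background 5.52%). The counting interval lay above 0 for 32 genes (background 43.3%) and below 0 for 24 (background 42.9%).

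Mrpl14 had the largest ratio of any measured member in this comparison. It lies at the face of the large subunit that meets the small one, where the assembly factor Malsu1 docks, and its gene is at chr17:45686322-45698495 on the plus strand. The 2 columns gave 9.10 and 7.82 CPM in G1, 5.73 and 5.65 in S, and 35.1 and 33.3 CPM in G2/M. Only G2/M was high, with a log2 ratio of 2.59 (2.37 to 2.81) to S and 2.02 (1.83 to 2.21) to G1. Of its exon bases 11.2% are shared with Tmem63b on the other strand, which was lower in G2/M (38.3, 46.3 and 26.8 CPM). Mrpl47, near the exit of the peptide tunnel, was at 20.3 CPM in G1, 15.5 in S and 38.7 CPM in G2/M, and 24.2% of its exon bases are shared with Actl6a or Ndufb5. Mrpl43, a protein with a thioredoxin-like fold, was at 27.5, 16.9 and 35.5 CPM. Mrpl44 and Mrpl58, described above, completed the 5 genes at least 2-fold higher, each returning in G2/M from its low in S.

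Among the 5 genes at least 2-fold lower in G2/M than in S, Mrpl36 was the most extreme. It is a very small protein of bacterial descent (chr13:73331009-73332175, plus strand), at 19.1 and 17.9 CPM in G1, 15.0 and 14.5 in S and 4.17 and 4.16 CPM in G2/M. Its G2/M level lay far under those of G1 and S, with a log2 ratio of -1.82 (-2.09 to -1.56) to S and -2.15 (-2.42 to -1.89) to G1. Mrpl27, whose bacterial relative reaches into the peptidyl transferase centre, was at 20.6, 24.1 and 10.1 CPM in G1, S and G2/M. Mrps15, a primary binder of the small ribosomal RNA in bacteria, was at 38.4, 47.1 and 22.8 CPM. Mrpl57 and Mrpl41 were the other two, Mrpl57 continuing down from S and Mrpl41 returning towards its G1 level. The last of the 6 lowest ratios was that of Mrpl1, at 27.3, 32.6 and 18.1 CPM.

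Across the whole interval, G2/M against G1, 38 genes were lower (background 50.1%) and 27 higher (background 49.9%), with a median log2 ratio of -0.15 against -0.00 over all measured genes. At 1.5-fold, 14 were lower (background 17.9%) and 8 higher (background 18.7%). At 2-fold, 8 were lower (background 8.1%) and 6 higher (background 8.34%). The counting interval lay below 0 for 33 (background 44.3%) and above 0 for 19 (background 44%). The G1 library is shared with the first comparison and the G2/M library with the second, so the 3 sets of ratios are not independent. Mrpl57 had the lowest ratio, at -3.05 (-3.27 to -2.83), followed by Mrpl36. Mrps16, a small subunit protein of bacterial descent, was at 48.8, 29.5 and 21.5 CPM, the remaining 5 being Mrpl3, Mrpl54, Mrpl16, Mrpl27 and Mrpl33. The 6 higher genes were Mrpl14, Mrpl39, Mrps23, Mrpl37, Mrps14 and Mrpl38. Mrpl37, a large subunit protein related to Mrps30, was at 29.5, 40.1 and 65.2 CPM, and Mrps14, of bacterial descent, at 7.21, 8.23 and 15.7 CPM. Both were highest in G2/M. Mrpl37 was also higher in S than in G1, while for Mrps14 that step was within counting error (log2 ratio 0.19, -0.062 to 0.45).

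Large and small subunit genes were then compared directly. In S against G1 their median log2 ratios were -0.23 (43 genes) and -0.25 (22 genes), a difference of 0.02. In G2/M against S they were 0.13 and 0.08, and in G2/M against G1 both were -0.15. The difference between subunits has no test here. In S against G1 it was -0.45 over the 14 members averaging 50 CPM or more, so its sign turned with that filter, and 0.21, with its sign kept, once the median of genes of like exon length was subtracted. At 1.5-fold, 12 large (27.9%) and 8 small (36.4%) subunit genes were lower in S than in G1, against 16.4% of all measured genes. Higher were 4 large (9.30%) and 3 small (13.6%), against 17.5%. At 2-fold, 7 large (16.3%) and 2 small (9.09%) subunit genes were lower, against 6.78%, and 2 large (4.65%) and 0 small were higher, against 7.49%. Which subunit had the larger share lower in S thus turned with the fold. Mrps30 and Mrps18a sit in the large subunit of the assembled ribosome. Of these Mrps30 alone was measured, and counting it there gave differences of -0.013, 0.073 and -0.036.

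**Figure D2:**
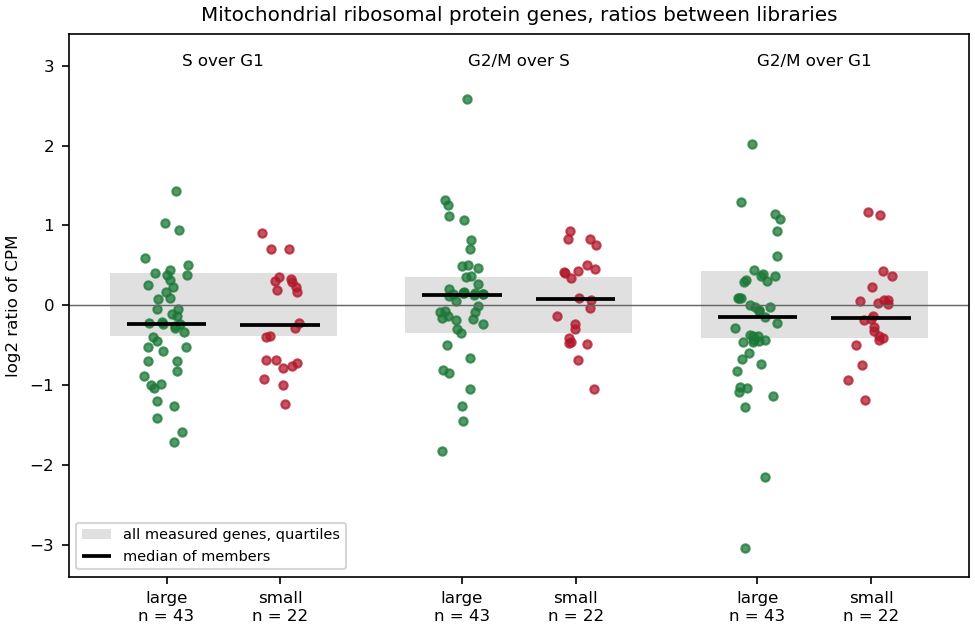
Log2 ratio of CPM of each measured mitochondrial ribosomal protein gene (1 point per gene) in the 3 comparisons, with large and small subunit genes side by side, the median of each as a bar and the quartiles of all 8335 measured genes as a grey band. The medians are -0.23 and -0.25, 0.13 and 0.08, and -0.15 and -0.15 for the large and small subunit, and single genes range from -3.05 to 2.59.

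A split by descent gave the following medians. Genes numbered up to 36 in the large and up to 21 in the small subunit carry the number of a bacterial counterpart. The others were counted as mitochondria-specific, a rule that misplaces a few genes such as Mrpl47 and Mrps24, which have bacterial relatives under another number. In S against G1, small subunit genes of bacterial descent had a median of 0.21 (12 genes, 7 higher and 5 lower), and mitochondria-specific ones -0.54 (10 genes, 3 higher and 7 lower). The corresponding medians of the large subunit were -0.23 (26 genes) and -0.39 (17 genes). In G2/M against S the small subunit medians were -0.18 and 0.42 and the large subunit medians 0.05 and 0.16. At 1.5-fold, 4 of the 17 mitochondria-specific large subunit genes (23.5%) and 0 of the 26 of bacterial descent were higher in S, against 17.5% of all measured genes. Lower in S were 6 of 17 (35.3%) and 6 of 26 (23.1%), against 16.4%. The split was read from these libraries and has no test.

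The functional neighbourhoods of the ribosome were also mixed. The stalk, which recruits translation factors, is built on Mrpl10, Mrpl11 and Mrpl12. Mrpl10 was at 16.5 CPM in G1, 21.8 in S and 21.6 CPM in G2/M, Mrpl12 at 28.8, 35.9 and 30.6 CPM, and Mrpl11 at the base of the stalk at 34.8, 29.7 and 20.98 CPM. The stalk proteins therefore did not share a direction. Mrpl45, which tethers the ribosome to the inner membrane, was at 59.1, 41.1 and 58.0 CPM. Mrpl13, at 90.2, 62.5 and 88.8 CPM, and Mrpl20, at 74.0, 62.8 and 57.1 CPM, were among the more abundant large subunit transcripts. Of the small subunit body and head, Mrps2 was at 54.1, 66.7 and 56.6 CPM, Mrps5 at 86.9, 109 and 88.7, and Mrps7 at 39.1, 22.7 and 30.0. Mrps2 and Mrps5 were highest in S, while Mrps7 was lowest there. Mrps22 (44.2, 23.4 and 31.3 CPM) and Mrps35 (43.6, 27.2 and 36.2 CPM), both mitochondria-specific, were also lowest in S. So was Mrps30, at 28.9, 17.9 and 25.4 CPM.

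The 3 paralogues of the bacterial S18 protein differed from each other. Mrps18c, a small subunit form, was measured at 13.6, 15.9 and 12.02 CPM. Mrps18b lay just under the minimum, with 27 (G1), 679 (S) and 368 (G2/M) fragments, a log2 ratio of S to G1 of 4.49 (3.94 to 5.10). The G1 columns were at 0.815 and 0.869 CPM, and 30.5% of the exon bases of Mrps18b are shared with the gene model Gm16279. Mrps18a, which sits in the large subunit, had 267, 147 and 378 fragments, the opposite order in G1 and S. Mrps12, a protein of the decoding centre, had 66, 362 and 323 fragments, low only in G1. Mrpl4 had 327, 383 and 243 fragments and Mrps36, since described as a subunit of the oxoglutarate dehydrogenase complex, 204, 237 and 336. To complete the genes under the minimum, 3 more are given outside the rule for named genes. Mrpl34 had 280, 182 and 336 fragments and Mrps11 257, 272 and 320. Mrpl48 had 198, 498 and 352, and its pseudogene Mrpl48-ps 6, 79 and 1, so the split of fragments between these copies is uncertain. Mrpl53 had no fragment in any library, and 87.1% of its exon bases are shared with Gm42688. A count of 0 with a floor of 3 fragments allows up to 0.0936 CPM in G1, 0.0837 in S and 0.0827 CPM in G2/M. Mrps34 had 0, 0 and 13 fragments, and 77.8% of its exon bases are shared with Mapk8ip3 or Nme3. The sources used here do not say how fragments over shared bases were assigned, so a low count of these 2 genes is no measure of their expression. The 3 low genes with the most uneven counts besides Mrps18b and Mrps34 were Mrpl46, Mrpl55 and Mrps28, which were singled out after their values were seen. Mrpl46 had 33, 471 and 53 fragments, Mrpl55 202, 292 and 36, and Mrps28 130, 74 and 472.

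Mitochondrial ribosomal protein genes are short, and short genes as a class differed between these libraries. The measured members had a median of 2011 exon bases, against 4317 over all measured genes. In the shortest of 10 length classes (57 to 1732 bases), the median log2 ratio of S to G1 was -0.25 over 834 genes of any kind and -0.23 over the 30 members there. In the longest class, which holds no member, the median was 0.32. Counted from the shortest, the members' median lay under that of all genes in classes 2, 4, 5, 6, 7 and 9. It lay above in classes 1, 3 and 8. Classes 2 to 9 hold 3 to 7 members each. In class 9 the medians were -0.41 over members and 0.16 over all genes, and in class 8 they were 0.33 and 0.13. From 1214 to 3991 bases, the middle range of the members, they were -0.22 over 33 members and -0.13 over 3379 genes. With the median of its length class subtracted from each gene, the members' median in S against G1 was -0.078 in place of -0.23. For G2/M against G1 the shortest class had a median of -0.15 over all genes and -0.30 over members, and for G2/M against S 0.10 and -0.11. The part of gene length in the members' lower level in S was not tested beyond these values.

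**Figure D3:**
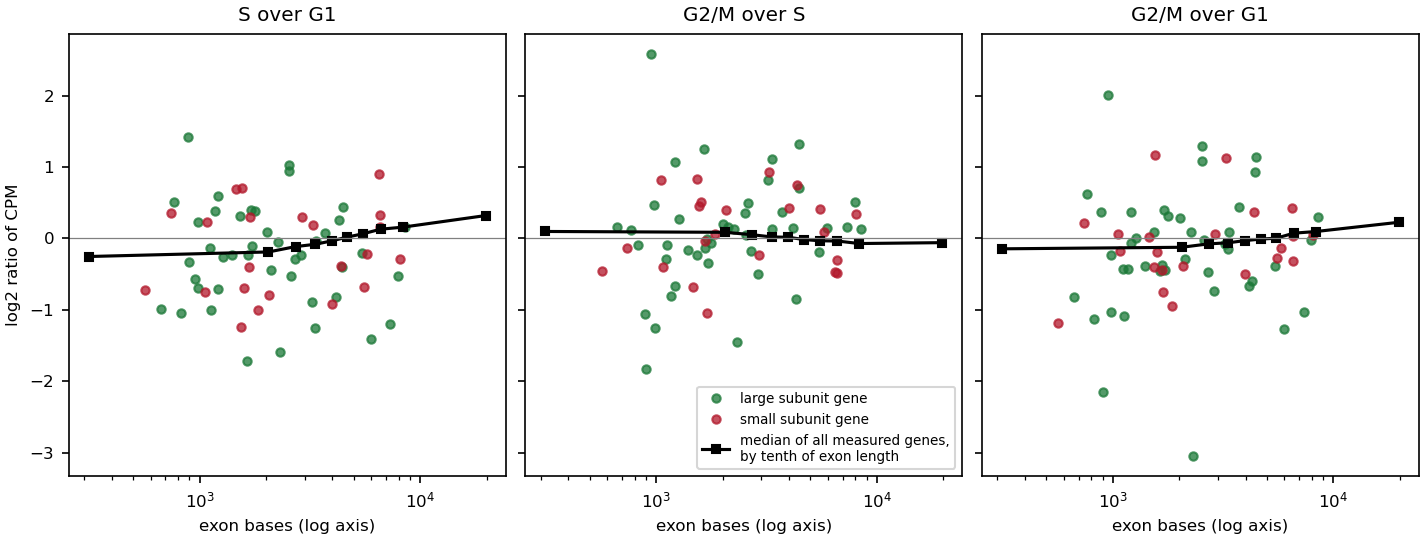
Log2 ratio of CPM against exon bases (log axis) for each measured mitochondrial ribosomal protein gene in the 3 comparisons, with the median of all measured genes in each of 10 length classes as black squares. In S over G1 the squares climb from -0.25 in the shortest class to 0.32 in the longest, and most members lie among the short genes.

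The share of genes past a fold differed by level. Of the 14 members at a mean of 50 CPM or more, 2 differed by 1.5-fold between S and G1 (14.3%, against 20.9% of genes of that level). Between 20 and 50 CPM it was 21 of 37 (56.8%, against 42.5%), and between 10 and 20 CPM 4 of 14 (28.6%, against 55.7%). The 2 abundant genes past the fold were Mrpl16 and Mrps6, both lower in S.

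Many of these genes face another gene head to head, with the start of a gene on the other strand within 1000 bases. This held for 17 of the 65 measured members (26.2%), against 12.1% of all measured genes, counting only neighbours that were measured too. The 2 genes of a pair had the same sign in 5 of 17 pairs for S against G1 (29.4%, against 51.8% of all 506 such pairs of measured genes), in 9 for G2/M against S (52.9%, against 50.8%) and in 7 for G2/M against G1 (41.2%, against 55.9%). The pairs named here were picked after their values were seen. Mrpl57 starts 76 bases from Ska3, a spindle and kinetochore protein, which was at 14.0 CPM in G1, 44.7 in S and 50.5 CPM in G2/M while Mrpl57 was at 43.7, 14.5 and 5.29. Mrpl43 starts 116 bases from Twnk, the helicase of mitochondrial DNA replication, which was at 28.9, 92.0 and 52.0 CPM while Mrpl43 was at 27.5, 16.9 and 35.5. In both pairs the genes thus differed in opposite directions between G1 and S. Mrpl51 was level while its neighbour Ncapd2, a condensin subunit 100 bases away, was at 79.0, 140 and 162 CPM. Mrpl30 and Mitd1, whose product acts in the last step of cytokinesis, were both lowest in S, Mrpl30 at 41.9, 22.6 and 39.8 CPM and Mitd1 at 26.4, 4.97 and 14.7. In 8 of the 17 pairs exons of both genes overlap. The counting named no strand option, and how fragments over the shared bases were assigned is not stated in the sources used here. None of the 4 named pairs is among these overlapping pairs.

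**Figure D4:**
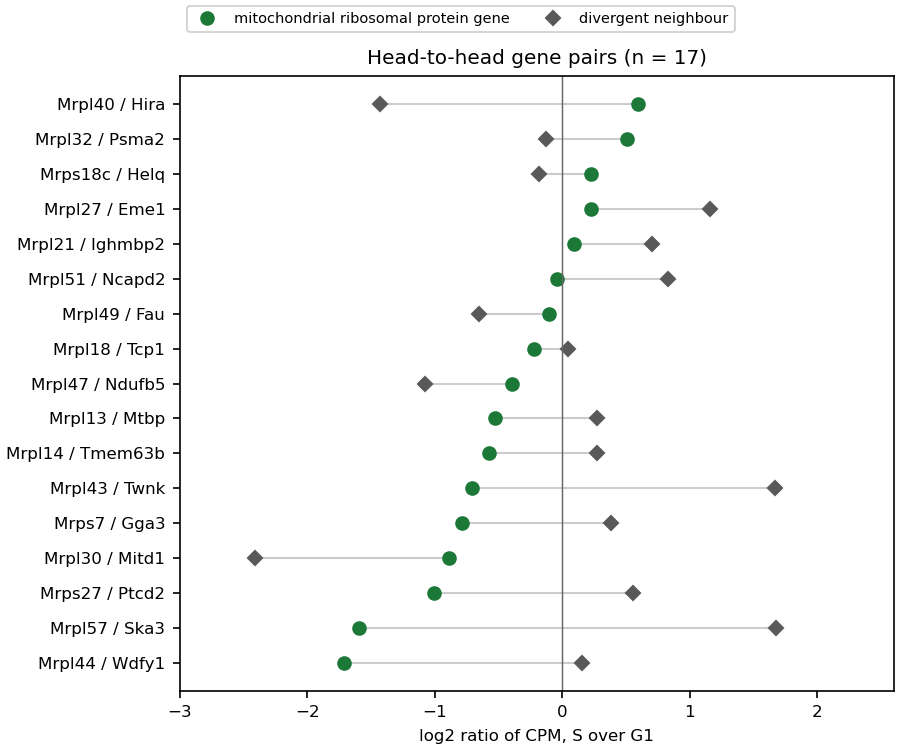
Log2 ratio of CPM, S over G1, of 17 mitochondrial ribosomal protein genes (circles) and of the measured gene that starts within 1000 bases on the other strand (diamonds), joined by a line for each pair. In 5 pairs both genes lie on the same side of 0, and Mrpl57 with Ska3 and Mrpl43 with Twnk show the widest gaps.

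Promoters are shown for genes with large ratios or shared starts and for examples of the motifs searched. The sequences are RefSeq's, of build GRCm38.p6, and 69 of the 78 members matched an entry, with 75 promoters. Each run is the 150 bases before the start, 5′ to 3′ on the gene's strand, with matches to a searched motif in capitals. The first 2 are starts shared with Ska3 and Twnk, the next 2 belong to genes low in G2/M, and the last 3 are examples chosen for their motifs after these were seen: Mrpl9 and Mrpl22 hold that of NRF1, and Mrps22 that of ETS factors. Mrpl22 was at 35.2 CPM in G1, 21.7 in S and 30.1 CPM in G2/M.
Mrpl57: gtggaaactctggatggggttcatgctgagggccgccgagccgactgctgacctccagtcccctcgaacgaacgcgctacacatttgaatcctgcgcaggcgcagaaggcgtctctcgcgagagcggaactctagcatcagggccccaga
Mrpl43: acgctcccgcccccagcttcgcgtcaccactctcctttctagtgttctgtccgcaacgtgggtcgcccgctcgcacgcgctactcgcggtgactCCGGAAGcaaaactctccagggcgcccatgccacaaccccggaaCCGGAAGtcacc
Mrpl36: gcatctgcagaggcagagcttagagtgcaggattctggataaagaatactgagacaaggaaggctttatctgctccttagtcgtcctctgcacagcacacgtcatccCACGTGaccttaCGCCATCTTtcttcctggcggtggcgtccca
Mrpl27: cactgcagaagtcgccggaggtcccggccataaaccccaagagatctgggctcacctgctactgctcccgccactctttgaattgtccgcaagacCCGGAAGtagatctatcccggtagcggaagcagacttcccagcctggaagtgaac
Mrpl9: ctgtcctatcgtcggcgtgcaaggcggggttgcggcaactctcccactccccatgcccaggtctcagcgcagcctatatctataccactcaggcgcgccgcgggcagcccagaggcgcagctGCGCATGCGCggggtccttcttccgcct
Mrpl22: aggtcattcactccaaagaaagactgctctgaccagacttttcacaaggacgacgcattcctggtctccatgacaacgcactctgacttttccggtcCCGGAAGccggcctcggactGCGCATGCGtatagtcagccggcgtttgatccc
Mrps22: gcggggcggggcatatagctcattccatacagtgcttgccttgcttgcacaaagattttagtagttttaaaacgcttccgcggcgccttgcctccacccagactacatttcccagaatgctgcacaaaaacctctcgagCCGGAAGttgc
These stretches lie at chr14:57826089-57826238 (plus strand) for Mrpl57, chr19:45006443-45006592 (minus) for Mrpl43, chr13:73330859-73331008 (plus) for Mrpl36 and chr11:94653641-94653790 (plus) for Mrpl27. Those of Mrpl9, Mrpl22 and Mrps22 lie at chr3:94443186-94443335 (plus), chr11:58171514-58171663 (plus) and chr9:98601680-98601829 (minus).

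The motif of NRF1, a regulator of nuclear genes for mitochondria, was searched as GCGCATGCG on both strands in the whole 300 bases of each promoter (250 before and 50 after the start). It was in 7 of the 75 member promoters (9.33%), against 1.75% of all 32851 promoters and 4.25% of those of measured genes. In Mrpl9 it begins 28 bases before the start, with an overlapping match on the other strand, and in Mrpl22 33 bases before. The ETS motif CCGGAAG, bound by GABP, was in 26 promoters (34.7%), against 8.86% of all and 19.9% of those of measured genes. Mrpl43 holds it at 56 and 12 bases before the start, Mrpl27 at 55, Mrpl22 at 53 and Mrps22 at 11. The YY1 motif AAGATGGCG was in 8 (10.7%, against 1.40% and 3.67%), in 2 of them before the start. Mrpl36 has it on the other strand at 31 bases before the start, next to the E-box CACGTG at 43. E-boxes were in 7 member promoters of 5 genes (9.33%, against 7.15% and 10.6%), where overlapping promoters of Mrpl2 hold the same E-box. NF-Y's CCAAT was in 30 promoters of 27 genes (40%, against 37.4% and 37.4%) and E2F's TTTGGCGC in 1 (1.33%, against 0.514% and 1.03%). Mrpl57 holds none of these letters in the stretch shown. A match is a description and not a site of binding. Nrf1 itself was at 32.2, 66.2 and 56.8 CPM in G1, S and G2/M and Gabpa, the DNA-binding part of GABP, at 90.1, 135 and 169 CPM. Myc was at 48.0, 42.2 and 41.3 CPM, and the coactivator Ppargc1a had 2, 0 and 0 fragments.

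The partners of these proteins did not all share their course. Measured cytosolic ribosomal protein genes were all lower in S than in G1 (76 of 76, background 50.1%). Their median log2 ratio was -0.41, with quartiles of -0.55 and -0.35. Their quartiles lay much closer together than those of the mitochondrial ribosomal proteins, at a far higher level per gene (a median of 420 CPM in G1, against 34.8 for the measured members). Of 73 nuclear-encoded respiratory chain subunits 56 were lower in S (background 50.1%, median -0.34). Genes of any kind in the shortest length class had a median of -0.25 in S against G1. The part of gene length in the lower levels of both lists was not tested. Of 13 genes for proteins encoded by mitochondrial DNA, the products of this ribosome, 8 were measured. Why the others lay under the minimum was not tested. The median log2 ratio of the 8 was -0.43 in S against G1, with 7 lower (background 50.1%). It was -0.32 in G2/M against S and -0.72 in G2/M against G1, with 8 of 8 lower in each (background 49.9% and 50.1%). The RNAs of the mitochondrial ribosome were at 248, 220 and 196 CPM (mt-Rnr1, small subunit) and 334, 433 and 342 CPM (mt-Rnr2, large subunit). The sources used here do not say whether polyadenylated RNA was selected.

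Among mitochondrial ribosomal proteins with other symbols, 4 of 5 in the table were measured. Dap3, the GTP-binding protein of the small subunit, was at 47.5, 66.9 and 53.4 CPM, and Ptcd3, a pentatricopeptide repeat protein, at 96.7, 65.5 and 73.4 CPM. They differed in direction as the named members did. Chchd1 was at 35.1, 22.8 and 51.8 CPM and Aurkaip1 at 23.7, 36.7 and 37.6 CPM. Assembly factors and ribosomal RNA modifiers split evenly in S against G1, 9 of 19 measured higher and 10 lower (median -0.07). Nsun4, a methyltransferase of the small ribosomal RNA, was at 3.65, 20.3 and 15.2 CPM, and Gtpbp10, a GTPase that matures the large subunit, at 24.6, 5.78 and 19.1 CPM. Malsu1, the partner of Mrpl14, which was added after its values were seen, was at 42.1, 37.1 and 25.1 CPM, lowest in G2/M where Mrpl14 was highest. Translation factors (15 measured) had medians of -0.03, -0.06 and 0.15 in S against G1, G2/M against S and G2/M against G1. Tufm, the elongation factor that brings transfer RNAs, was at 46.3, 39.6 and 58.6 CPM, and Taco1, an activator of Cox1 translation, at 5.37, 18.3 and 20.3 CPM. Enzymes that charge mitochondrial transfer RNAs (14 measured) had medians of 0.20, 0.11 and 0.16, and genes of mitochondrial DNA transcription and maintenance (17 measured) 0.11, 0.16 and 0.53. Polrmt, the mitochondrial RNA polymerase, was at 15.9, 27.6 and 16.6 CPM and Tfam, which packages mitochondrial DNA, at 110, 114 and 86.6 CPM. Protein import (25 measured) stood near 0, with medians of -0.11, 0.00 and -0.10.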

How the data were processed

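RNA was measured in 3 sorted fractions of C2C12 cells, with 2 columns each. The deposited values are whole counts of fragments per gene, made by the authors with featureCounts 1.5.0-p3 on paired reads over exons (Ensembl GRCm38), per the file headers, whose command names no strand option. Per the submitters' processing notes, HISAT2 2.1.0 and SAMtools 1.6 were used, in a role not stated. Read filters are not given in the sources used here. Symbols matched 45143 of 46078 gene identifiers.

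Column pairs were tested with chi-square over genes with at least 10 fragments. Chi-square over degrees of freedom was under 1.5 in each phase (p-values of 0.450, 0.0109 and 3.11e-28 in the order G1, S, G2/M), so columns were summed, and no test between phases was made. CPM used TMM factors of 0.990, 1.00 and 1.01 (edgeR 4.0.16, R 4.3.3). Counts under 3 were set to 3 before a ratio, and genes with 3 or fewer in both libraries have none. Intervals are exact binomial (ratios) or exact Poisson (sums) at 95% and cover counting error only. They leave out the spread between cultures, and they treat PCR copies as independent molecules, which they are not. Library depths of 32395232 to 35907974 fragments set their width. The calculation was tested on simulated counts.

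Members and lists were chosen with earlier results of these data known. Named members are all at 2-fold, the 6 largest ratios each way per comparison, the 4 highest and 4 lowest per kilobase in each subunit, and a fixed list. Mrps21, among the 4 highest per kilobase of the small subunit, met this rule and is not described above. Genes outside this rule are marked in the text, or complete the 13 under the minimum. From other lists, genes were named out of the 3 largest ratios per comparison and a fixed list. Many of these genes are not described here, so the examples given are a selection. Alternatives covered scaling (library size, DESeq2 1.42.0 size factors), minimum level, single columns, exon length, exonic overlap and subunit assignment.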

Additional observations from a re-analysis of the deposited data

How the results depend on the processing

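No paired analysis was possible because each phase came to 1 library and no result rests on a test. Of 120 values recomputed over 12 results and 10 settings, 98 stayed within a limit and 22 did not. For the 22 the cause was not tested except where fewer genes entered. For a count the limit was a factor of 1.5. For a median or a difference of medians it was 0.13, the typical counting half-width of 1 member's ratio. The counting error of a median itself was not computed, so a value within the limit can still have changed. In G2/M against S the members' median went from 0.11 to -0.00012 among the 14 averaging 50 CPM or more. In G2/M against G1 it went from -0.15 to -0.028 with no minimum. Both stayed within the limit. Scaling, subunit assignment by structure (which among measured genes moves Mrps30 alone) and either column alone moved none of the 12 past its limit. The members' median in S against G1 was -0.078 with the length class subtracted, where large minus small subunit was 0.21 and 11 genes were 1.5-fold higher. A mean of at least 50 CPM left 14 members: large minus small was then -0.45 in S against G1, 0.37 in G2/M against S and -0.31 in G2/M against G1, with 0 higher and 2 lower, 1 higher and 0 lower, and 0 higher and 1 lower at 1.5-fold. With no minimum, large minus small was -0.14 in G2/M against S and -0.16 in G2/M against G1. At 1.5-fold, 11 genes were then higher in S than in G1 and 13 higher in G2/M than in G1. At least 10 CPM in 1 of the 2 libraries gave 11 genes 1.5-fold higher in S than in G1 and a subunit difference of -0.20 in G2/M against G1. Leaving out members with exonic overlap (43 left) gave subunit differences of -0.22 in S against G1 and -0.17 in G2/M against G1. At 1.5-fold, 13 of these genes were lower in S than in G1 and 5 higher in G2/M than in S. The share of all measured genes past the fold is not given here for these changed settings. The difference between subunits therefore has no stable sign here, and the counting interval of a member's ratio typically reaches 0.13 to either side.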
